A study of Mus musculus with 6 samples.

Results

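The comparison described here was between KPCY mouse pancreatic tumour cells carrying Pthlh hairpin 1 and the same kind of cells carrying a non-targeting hairpin. It used 4 of the 6 libraries of the series: replicates 1 and 2 of shNT, the non-targeting control, and replicates 1 and 2 of shPthlh oligo #1, called hairpin 1 below. Of the 24493 genes in the deposited table, 11334 had a level of at least 1 TPM (a transcript's abundance per unit of its length, scaled so that each library sums to 1000000) in at least 2 of these 4 libraries and were tested. The rule used the levels only to set this minimum, in either group, and not the difference between groups. The 2 libraries of hairpin 2 took no part in that test, and their values are given for comparison.

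KPCY cells come from a genetic mouse model of pancreatic ductal adenocarcinoma with a yellow fluorescent lineage label. All groups were labelled as mouse pancreatic tumour cells of strain C57BL/6, transduced with a short hairpin RNA, and by the labels differed in the hairpin alone: shNT (n = 2), shPthlh oligo #1 (n = 2) and shPthlh oligo #2 (n = 2). The labels give no age, sex or time after transduction. They describe the cells both as sorted from tumours in mice and as kept in DMEM medium, and which of these came last before RNA extraction is not settled. By its design text the study worked with 2 parental clones, but the libraries carry no clone name, so hairpin and clone cannot be told apart if the clones differ between groups. The origin of the replicates, as different cultures, animals or RNA samples, is not given, and the p-values therefore reflect the variation among 4 libraries that may be technical repeats.

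Pthlh encodes parathyroid hormone-related protein (PTHrP), a secreted peptide that binds the receptor Pth1r on the same or other cells. The receptor acts mainly through the G protein subunit Gnas, cyclic AMP and protein kinase A. Tumour-derived PTHrP is best known for raising blood calcium in cancer patients by acting on bone, and it has been tied to bone metastasis and wasting.

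The libraries were alike within each group. On the log2(scaled TPM + 1) scale, Pearson's r over genes was 0.988 between the shNT replicates, 0.993 between those of hairpin 1 and 0.959 to 0.964 between groups, where genes are not independent points. A single short entry, Mir6236, held 34.1% and 24.3% of the TPM of shNT replicates 1 and 2, and 20.4% and 19.7% with hairpin 1. Levels are therefore given as scaled TPM, the deposited TPM divided by a library factor (0.959 to 1.051) that sets the typical gene level with the other libraries. Depth is unknown, because TPM keeps no read counts. The labelled cell type was checked against markers. Of 12 genes of pancreatic tumour cells, 10 reached 1 TPM, with summed levels of 5509 to 5813 scaled TPM per library. Krt8, Krt18 and Cdh1 were high, whereas Epcam, a usual epithelial surface marker, was at 0.121 to 0.622 scaled TPM in the 4 libraries. Marker sums of neutrophils, lymphocytes, fibroblasts, endothelium, islet and erythroid cells were at most 2.24 scaled TPM in any library. The myeloid list summed to 77.5 and 78.6 in shNT and 87.4 and 91.0 with hairpin 1, of which Cd14 made up 69.1 and 71.6 in shNT and 70.3 or more with hairpin 1, and Mrc1 4.999 and 4.84 in shNT and 14.2 in each hairpin 1 library, while its defining genes Adgre1, Lyz2 and C1qa were listed at 0 in all 4 libraries. The acinar list summed to 15.7 and 21.2 in shNT and 13.4 and 13.5 with hairpin 1, and 6 of its 11 genes, among them Cpa1 and Amy2a5, were listed at 0.

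Pthlh (chromosome 6, 147252101 to 147264183, minus strand, mm10) was low in all libraries. Its level was 0.784 and 0.994 scaled TPM in shNT and 0 and 0.102 with hairpin 1, which leaves 5.74% of the shNT mean. The groups did not overlap, and every value was under the 1 TPM minimum, so Pthlh was not among the 11334 genes. In the same limma model fitted without the minimum, the log2 difference was -0.85 ± 0.09 (SE), with adjusted p = 0.0114; without any single library it was between -0.93 and -0.76, with adjusted p from 0.0733 to 0.160. Permuting the labels exactly gave a one-sided p of 0.167, which is the lowest value possible with 6 arrangements. With hairpin 2 the level was 0.0410 and 0.252 scaled TPM. The receptors Pth1r and Pth2r were at or under 0.102 and 0.0504 scaled TPM in these 4 libraries.

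Genes of the PTHrP and cyclic AMP pathway were called lower in a share near that over all genes, and higher in a smaller share. Of 34 listed genes 26 were tested, and 2 (7.69%) were called higher and 5 (19.2%) lower. Over all 11334 genes 19.5% were called higher and 21.8% lower. The median log2 difference of the list was -0.08, against 0.01 over all genes. Without either hairpin 1 library 1 was called higher and 3 lower, and on the deposited scale 8 and 4. Gnai1, an inhibitory G protein subunit of adenylyl cyclase, rose from 9.65 and 8.9 scaled TPM in shNT to 20.4 and 20.6 with hairpin 1 (log2 difference 1.07 ± 0.07 (SE), adjusted p = 0.00123). Mmp13, a collagenase that PTHrP is known to induce in bone cells, fell from 12.96 and 13.4 scaled TPM in shNT to 0.558 and 0.958 with hairpin 1 (log2 difference -3.02 ± 0.13 (SE)). Dusp1, an immediate early phosphatase that cyclic AMP can induce, fell from 11.8 and 13.04 scaled TPM in shNT to 6.54 and 5.83 with hairpin 1, and Stc1, a secreted calcium-regulating hormone, from 2.04 and 2.04 scaled TPM in shNT to 0.461 and 0.491 with hairpin 1. Mmp13 and Stc1, 2 of the 5 called lower, passed the minimum through shNT only, which favours such calls. Prkaca, the main catalytic subunit of protein kinase A, was at 122 and 122 scaled TPM in shNT and 128 and 129.9 with hairpin 1 (adjusted p = 0.271).

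Differences reached across the transcriptome. In bulk RNA, fewer cells that express a gene and less RNA per cell cannot be told apart. At an adjusted p under 0.05 (limma, Benjamini-Hochberg over all 11334 genes), 4687 genes (41.4%) were called, 2213 higher (19.5%) and 2474 lower (21.8%) with hairpin 1. Most were small: 271 called genes rose and 309 fell by at least 1 on the log2 scale, and 49 rose and 39 fell by at least 2. The libraries of the groups did not overlap at 8482 genes (74.8%). The size of these counts rests on both hairpin 1 libraries. Without hairpin 1 replicate 1 or 2, 1307 or 1266 genes were called, whereas 4960 and 5646 were called without shNT replicate 1 or 2. Where a hairpin 1 library is left out, the spread comes from the shNT pair alone, which is the more variable. On the deposited TPM scale, without the library factors, 3246 genes were called higher and 1845 lower. There 63.8% of calls were rises, against 47.2% on the scaled values. The deposited scale moves the median of all genes to 0.11, and the part of Mir6236 in this was not tested. Of the genes tested, 216 reached the minimum only through hairpin 1 and 179 only through shNT; 156 of each were called in that direction, which the minimum favours. Such genes had to differ to be tested, so their p-values and calls are no support. They include 5 of the 15 largest rises (Cdx2, Ppp1r1b, Serpinb1a, Sox2 and Twist2) and 5 of the 15 largest falls (Ddah1, Fermt2, Mmp13, Sulf2 and Thbs1) described below, and over all lists 11 of the calls higher and 21 of the calls lower. The shares of 19.5% higher and 21.8% lower over all genes stand as the background of each list count below.

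Genes called lower were unevenly spread over the chromosomes, which is given here as a description with no test. Over the 908 tested genes of chromosome 2 the median log2 difference was -0.37, and 58.6% were called lower against 4.30% higher. Chromosome 16 had a median of -0.30 over 354 genes, chromosome 9 of -0.22 over 642 and chromosome 19 of -0.17 over 420, with 53.7%, 41.6% and 37.1% of their genes called lower. The shares called higher on those 3 were 1.98%, 8.26% and 10.5%. Chromosome 1 had a median of -0.09, and each of the other 15 lay between 0.01 and 0.12. Chromosomes 2, 9, 16 and 19 hold 20.5% of the tested genes and 46.3% of all genes called lower.

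**Figure D1:**
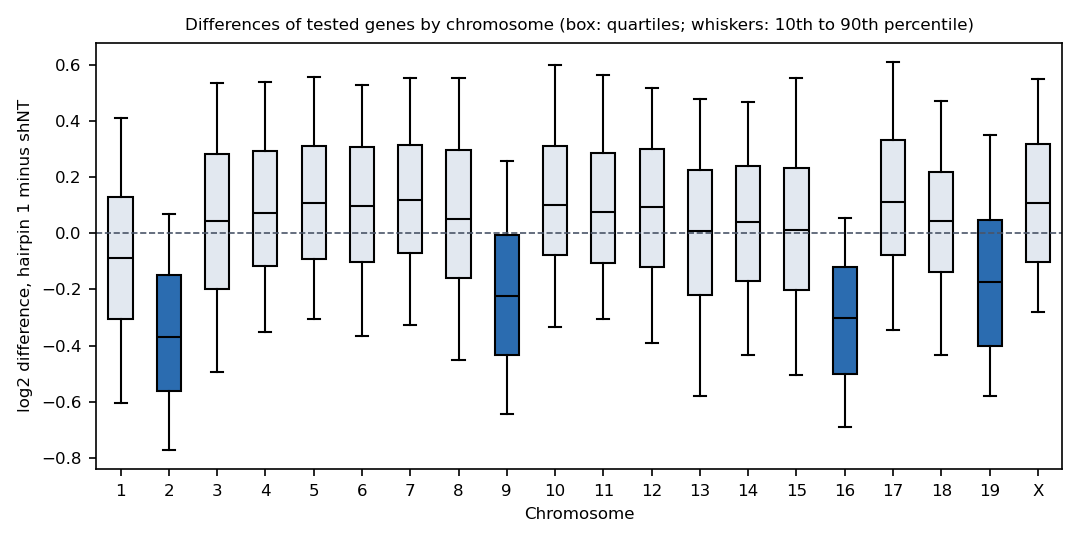
Log2 difference of tested genes, hairpin 1 minus shNT, by chromosome; boxes span the quartiles with the median as a line, and whiskers run from the 10th to the 90th percentile. Chromosomes 2, 9, 16 and 19 (dark boxes) have medians of -0.37, -0.22, -0.30 and -0.17, and the upper quartile of chromosomes 2, 9 and 16 lies below 0.

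The shift ran along the length of these chromosomes, though unevenly on chromosome 9. There the 7 windows of 20 Mb had medians from -0.33 to -0.06. On chromosome 19 the 3 windows with at least 20 tested genes lay between -0.195 and -0.114. Every one of the 10 windows of 20 Mb on chromosome 2 had a median between -0.41 and -0.32, and the 4 windows of chromosome 16 with at least 20 tested genes lay between -0.35 and -0.28; its other window, with 15 genes, had a median of -0.20. On chromosome 1 the shift was uneven: the 308 genes in the first 100 Mb had a median of 0.02, while the 307 genes from 120 to 200 Mb had one of -0.18, with 36.8% called lower. The shift was the same in every pairing of a hairpin 1 with an shNT library, from -0.38 to -0.37 for chromosome 2 and from -0.31 to -0.30 for chromosome 16. Between the replicates of a group, the chromosome 2 median differed by -0.02 for shNT and 0.00 for hairpin 1. In the separate test of hairpin 1 against hairpin 2, which does not use shNT, the medians were -0.29, -0.29, -0.18 and -0.04 for chromosomes 2, 16, 19 and 9. Chromosome number and clone were not measured, and their part in these values was not tested. Larger falls were spread more widely: of the 309 genes that fell by at least 1, 99 (32.04%) lay on these 4 chromosomes. With each chromosome's median subtracted, 3831 genes were called, 1852 higher and 1979 lower. Differences given below are without this subtraction unless stated. Over the alternative settings, log2 differences lay between -0.82 and -0.44 for Abcc1 (chromosome 16) and between -0.70 and -0.40 for Anln (chromosome 9). Those of Ctnnd1 lay between -0.79 and -0.35 and those of Itgav between -0.91 and -0.47. For Icam1 they lay between -0.66 and -0.36, and for Smad3 between -0.73 and -0.44.

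The gene that rose most was Cdx2, the homeobox transcription factor of intestinal epithelium. Its level was 0.346 and 0.129 scaled TPM in shNT and 45.5 and 46.3 with hairpin 1, and the groups lay far apart (log2 difference 5.25 ± 0.11 (SE)). It was tested only because it is high with hairpin 1. It reached only 0.947 and 1.01 with hairpin 2. Some genes of gut epithelium stood beside it, while others were called lower, as given below. Lgals4, a galectin of the gut lining, was at 20.01 and 19.2 scaled TPM in shNT and 185 and 183 with hairpin 1 (log2 difference 3.17 ± 0.05 (SE)). Tff2, a trefoil peptide of gastric mucus, was at 3.03 and 2.42 scaled TPM in shNT and 28.4 and 25.96 with hairpin 1, and Sox2, a transcription factor of foregut and stem cells, at 0.0738 and 0.0662 scaled TPM in shNT and 9.67 and 9.08 with hairpin 1. Sox2 was at 0.0437 and 0.134 with hairpin 2, as low as in shNT.

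Other large rises were in secreted proteins, enzymes and a mesenchymal transcription factor. Igfbp5, which binds insulin-like growth factors outside the cell, was at 0.91 and 1.08 scaled TPM in shNT and 45.6 and 39.2 with hairpin 1 (log2 difference 4.44 ± 0.10 (SE), adjusted p = 0.000232). Ppp1r1b, an inhibitor of protein phosphatase 1 that protein kinase A switches on, was at 0.0502 and 0.0841 scaled TPM in shNT and 17.4 and 18.8 with hairpin 1. Both genes were near 0 or 1 in every shNT and hairpin 2 library. Serpinb1a, an intracellular protease inhibitor, rose by 3.63 ± 0.11 (SE) (log2), Twist2, a transcription factor of mesenchymal cells, by 3.30 ± 0.22 (SE), Gpd1, which links glycolysis to glycerolipids, by 3.12 ± 0.07 (SE), and Dhrs3, a retinaldehyde reductase, by 2.95 ± 0.09 (SE). Sult1c2, a sulfotransferase, was at 6.69 and 6.53 scaled TPM in shNT and 79.7 and 77.1 with hairpin 1. Its level with hairpin 2, 15.7 and 15.7, lay between the other groups. S100g, a calcium-binding protein, was at 4.58 and 8.99 scaled TPM in shNT and 47.04 and 58.9 with hairpin 1; its shNT replicates lay well apart from each other. The proliferins Prl2c3 and Prl2c4 completed the 15 largest rises, with Ugt1a7c, and are described with their families.

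The largest fall was that of Thbs1, thrombospondin 1, a matrix glycoprotein that can activate latent TGF-beta. It was at 20.6 and 19.1 scaled TPM in shNT and 0.791 and 0.846 with hairpin 1 (log2 difference -3.52 ± 0.08 (SE)). With hairpin 2 it was at 8.76 and 7.95, between the other groups. Sulf2, which removes 6-O-sulfate from heparan sulfate outside the cell, was at 15.8 and 14.3 scaled TPM in shNT and 0.659 and 0.864 with hairpin 1. Timp3, a matrix-bound inhibitor of metalloproteinases, was at 18.1 and 17.8 scaled TPM in shNT and 1.21 and 1.32 with hairpin 1, and its groups were also wide apart (log2 difference -3.07 ± 0.07 (SE)). Wnt7a, a Wnt ligand, was at 23.2 and 23.6 scaled TPM in shNT and 2.28 and 2.43 with hairpin 1 and at 22.1 and 20.9 with hairpin 2, close to shNT.

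Several of the other 11 largest falls concern the cell cortex and cytoskeleton. Dbn1 (drebrin, an actin-binding protein) fell by 2.84 ± 0.09 on the log2 scale, Fermt2 (kindlin-2, an integrin activator) by 2.58 ± 0.08, Flnc (filamin C, an actin cross-linker) by 2.57 ± 0.12, and Nes (nestin, an intermediate filament protein) by 2.59 ± 0.07. Palm3, a membrane protein of the paralemmin family, fell by 2.51 ± 0.08, and Aif1l, a relative of an actin-bundling protein, by 2.50 ± 0.08. Hs6st2, which adds 6-O-sulfate to heparan sulfate, fell by 2.74 ± 0.08, and Ddah1, which breaks down an inhibitor of nitric oxide synthase, by 2.50 ± 0.13. Igfbp3, Mmp13 and Cyr61 complete the group. Flnc, Palm3 and Ddah1 were no lower with hairpin 2 than in shNT: their hairpin 2 levels were 23.2 and 23.2, 31.7 and 30.02 and 9.73 and 9.41, against 18.8 and 18.6, 20.7 and 22.97 and 9.18 and 7.7 in shNT. All 30 of these genes were also called in the same direction for hairpin 1 against hairpin 2, with adjusted p from 5.34e-05 to 0.0145 in a test that called 50.3% of 11387 genes. The same hairpin 1 libraries chose these genes, so this is no independent check.

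**Figure D2:**
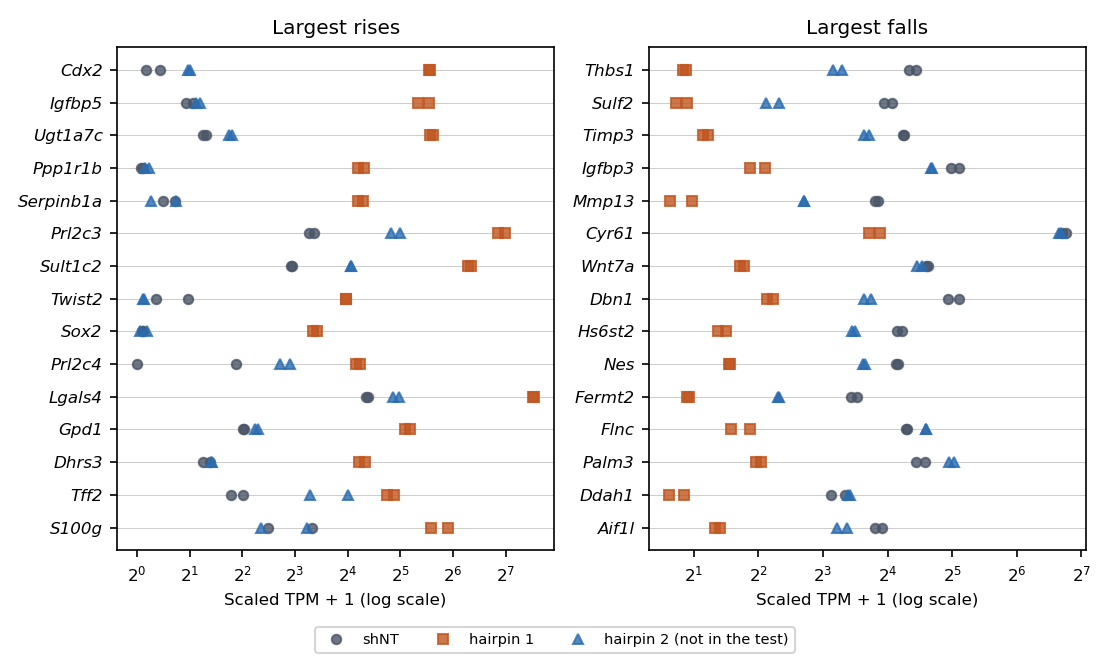
Level of the 15 largest rises and 15 largest falls in each library, as scaled TPM + 1 on a log axis, for shNT, hairpin 1 and, outside the test, hairpin 2. Hairpin 1 libraries of Cdx2 sit at 45.5 and 46.3 scaled TPM and those of Thbs1 at 0.791 and 0.846, while the hairpin 2 mean of 27 of the 30 genes lies nearer to shNT than to hairpin 1. The genes were chosen for their extreme hairpin 1 values, which favours this, and the share over all genes was not computed.

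In absolute level the picture was set by abundant proteins. The largest rise in scaled TPM among called genes was that of the proliferin Prl2c2, and S100a4, a calcium-binding protein linked to cell motility, was at 130.0 and 198 scaled TPM in shNT and 723 and 691 with hairpin 1 (log2 difference 2.13 ± 0.21 (SE), adjusted p = 0.00299). Lgals2, a galectin, was at 716 and 853 scaled TPM in shNT and 1664 and 1728 with hairpin 1, and its adjusted p rose to 0.0519 and 0.0562 without hairpin 1 replicate 1 or 2. Clu, a secreted chaperone, had the largest fall, at 2534 and 2199 scaled TPM in shNT and 1175 and 1183 with hairpin 1; its adjusted p was 0.0791 and 0.08 without those libraries. With hairpin 2, Clu was at 1321 and 1341, also below shNT, and hairpin 1 minus hairpin 2 was -0.18 ± 0.02 (SE, log2) (adjusted p = 0.00393). Actg1, gamma-actin, was at 1772 and 1843 scaled TPM in shNT and 1269 and 1299 with hairpin 1 (adjusted p = 0.013, and 0.209 and 0.19 without hairpin 1 replicate 1 or 2).

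YAP1 and WWTR1 (TAZ) are coactivators that bind TEAD factors and switch on genes of growth, matrix and cytoskeleton when the Hippo kinases are inactive. Of 20 tested target genes, 18 were called lower with hairpin 1 and 1 higher, with a median log2 difference of -0.80, beside 21.8% called lower over all genes. Without hairpin 1 replicate 1 or 2, 12 or 14 were called lower; under the other scalings 18 were. The motif that TEAD factors bind, GGAATG, or its reverse complement CATTCC was sought on both strands in the 250 bases before each gene's start in RefSeq (GRCm38.p6). A promoter window was held for 12 of the 18 targets called lower, and 7 of those had a match. Over all genes 12.64% of 32851 windows had one, counted by window rather than by gene. The list is of known targets, and those not called lower were not searched, so these shares say nothing about the falls. A match is a description of letters, not a binding site. The sequences below show where the match lies in 4 of these targets, which were chosen after their values were seen, with the motif in capitals.
Cyr61 (chr3:145649986-145650145, minus strand, match 103 bases before the start): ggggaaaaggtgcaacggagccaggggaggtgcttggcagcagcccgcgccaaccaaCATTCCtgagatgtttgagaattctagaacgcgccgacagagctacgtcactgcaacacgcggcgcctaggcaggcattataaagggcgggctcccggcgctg
Ankrd1 (chr19:36119845-36120004, minus strand, match 123 bases before the start): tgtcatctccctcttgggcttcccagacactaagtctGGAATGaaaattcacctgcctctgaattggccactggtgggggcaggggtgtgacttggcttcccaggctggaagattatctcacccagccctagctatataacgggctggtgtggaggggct
Amotl2 (chr9:102717644-102717803, plus strand, match 65 bases before the start): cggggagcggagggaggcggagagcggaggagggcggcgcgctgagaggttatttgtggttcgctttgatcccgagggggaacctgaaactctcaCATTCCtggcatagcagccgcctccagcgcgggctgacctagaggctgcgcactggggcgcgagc
Crim1 (chr17:78200088-78200247, plus strand, match 79 bases before the start): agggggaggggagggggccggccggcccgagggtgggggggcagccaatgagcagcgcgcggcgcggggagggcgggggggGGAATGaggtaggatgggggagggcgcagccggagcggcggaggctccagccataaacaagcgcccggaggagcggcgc
Ankrd1 has a further match 210 bases before its start, outside the printed stretch.

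Cyr61, a matricellular integrin ligand and a standard YAP target, was at 107 and 103 scaled TPM in shNT and 13.8 and 12.2 with hairpin 1 (log2 difference -2.93 ± 0.08 (SE), adjusted p = 0.000322). With hairpin 2 it was at 102 and 99.5, close to shNT, and hairpin 1 minus hairpin 2 was -2.87 ± 0.06 (SE, log2) (adjusted p = 6.37e-05). Ankrd1, a nuclear and sarcomeric ankyrin-repeat protein, was at 182 and 193 scaled TPM in shNT and 49.1 and 48.9 with hairpin 1, and Ctgf, a matricellular growth factor, at 27.1 and 28.8 scaled TPM in shNT and 14.9 and 16.1 with hairpin 1. Amotl2, which binds YAP at junctions and is itself a target, was at 40.1 and 35.3 scaled TPM in shNT and 12.1 and 12.3 with hairpin 1. In all of these the groups did not overlap, as was so at 74.8% of all tested genes. Igfbp3 fell by 3.05 ± 0.11 on the log2 scale, Arhgef17, an exchange factor for small GTPases, by 1.498 ± 0.09, and F3 (tissue factor) by 0.83 ± 0.05. Crim1, a transmembrane BMP-binding protein, was at 28.8 and 28.2 scaled TPM in shNT and 15.5 and 16.6 with hairpin 1. Foxf2, a forkhead transcription factor, was the one target called higher, at 61.7 and 58.1 scaled TPM in shNT and 76.4 and 75.4 with hairpin 1; that call was lost with small-RNA entries left out (adjusted p = 0.0889) and without hairpin 1 replicate 1 or 2 (adjusted p = 0.115 and 0.107).

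The coactivators themselves were lower. Yap1 was at 62.6 and 60.8 scaled TPM in shNT and 37.96 and 36.9 with hairpin 1 (log2 difference -0.71 ± 0.05 (SE), adjusted p = 0.00175) and Wwtr1 at 40.99 and 40.1 scaled TPM in shNT and 22.5 and 21.6 with hairpin 1 (log2 difference -0.85 ± 0.05 (SE)). Lats2, a Hippo kinase that is also a YAP target, was at 18.2 and 14.7 scaled TPM in shNT and 8.11 and 7.53 with hairpin 1. Among the 20 tested factors and Hippo kinases, 12 were called lower and 0 higher, with a median of -0.27; 4 were called lower without either hairpin 1 library, and 7 on the deposited scale, where 1 was higher. Yap1 lies on chromosome 9 and Amotl2 as well; with each chromosome's median subtracted both calls held, at log2 differences of -0.48 and -1.32.

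Nearly all enzymes of cholesterol synthesis were lower. Of 26 genes, all tested, 23 were called lower and 0 higher, with a median log2 difference of -0.97, and 21 were called lower without either hairpin 1 library. Idi1, which isomerises isopentenyl diphosphate, was at 185 and 184 scaled TPM in shNT and 68.2 and 69.8 with hairpin 1 (log2 difference -1.41 ± 0.05 (SE), adjusted p = 0.000532), and Fdps, which makes farnesyl diphosphate, at 617 and 619 scaled TPM in shNT and 277 and 279.6 with hairpin 1. Fdft1, the first enzyme committed to sterols, was at 62.3 and 64.8 scaled TPM in shNT and 26.5 and 25.3 with hairpin 1. In each of these 3 genes both hairpin 1 libraries lay below both shNT libraries, and the replicates stood close together. Over all tested genes the groups did not overlap at 74.8%, in either direction. Msmo1 fell by 1.21 ± 0.05 on the log2 scale, Mvd by 1.40 ± 0.07 and Hsd17b7 by 1.40 ± 0.06, enzymes of the same route. Srebf2, the transcription factor that drives these genes, was at 156 and 134 scaled TPM in shNT and 118 and 125 with hairpin 1 and was not called (adjusted p = 0.0873).

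**Figure D3:**
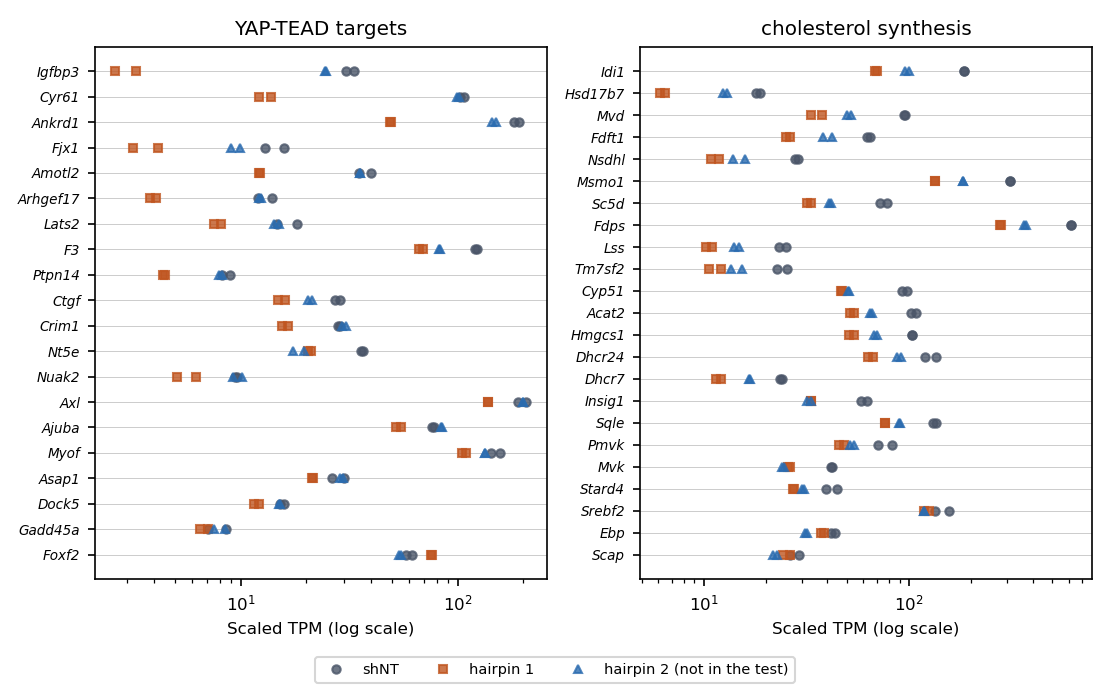
Level of tested YAP-TEAD targets and of all but 3 tested cholesterol synthesis genes in each library, as scaled TPM on a log axis, for shNT, hairpin 1 and, outside the test, hairpin 2. With hairpin 2 the cholesterol gene Idi1 lies between the other groups (at 99.5 and 95.2), while Cyr61 with hairpin 2 stays beside shNT at 102 and 99.5.

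Fatty acid synthesis followed. Of 17 tested genes 12 were called lower and 2 higher (median -0.59); 9 were called lower without either hairpin 1 library. Fasn, fatty acid synthase, was at 59.9 and 53.3 scaled TPM in shNT and 27.6 and 26.8 with hairpin 1 (log2 difference -1.03 ± 0.07 (SE), adjusted p = 0.00167). Acly, which makes cytosolic acetyl-CoA, fell by 0.72 ± 0.05 on the log2 scale. The desaturases Scd2, Scd1 and Fads2, all on chromosome 19, fell by 0.94 ± 0.07, 0.81 ± 0.06 and 1.15 ± 0.09. The desaturase Scd1 was at 145 and 134 scaled TPM in shNT and 80.1 and 78.9 with hairpin 1 and at 79.9 and 80.4 with hairpin 2; the 2 hairpins differed there by -0.02 ± 0.03 (SE, log2) (adjusted p = 0.677). Srebf1, which controls this set, was at 51.3 and 45.2 scaled TPM in shNT and 48.3 and 47.6 with hairpin 1 (adjusted p = 0.952). Chromosomes 2, 9, 16 and 19 hold 8 of the 17 genes. With chromosome medians subtracted 11 were called lower and 1 higher, with a median of -0.49.

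In the actin and focal adhesion list, 31 of 46 tested genes (67.4%) were called lower and 4 (8.70%) higher, beside 21.8% and 19.5% over all genes (median -0.44); without hairpin 1 replicate 1 or 2, 14 or 13 were called lower, and 25 on the deposited scale. Cnn2 and Cnn3, calponins that bind actin filaments, were at 81.2 and 81.8 scaled TPM in shNT and 27.6 and 28.2 with hairpin 1 and at 212 and 204 scaled TPM in shNT and 76.97 and 81.3 with hairpin 1. Vcl, vinculin, which ties integrins to actin, fell by 0.80 ± 0.07 on the log2 scale. Fermt2, also called lower, passed the minimum through shNT only, and Lims2, called higher, through hairpin 1 only. The rises were smaller in number: Lims2, an adaptor at focal adhesions, was at 0.609 and 0.205 scaled TPM in shNT and 5.43 and 5.05 with hairpin 1, and Tns1, tensin 1, at 2.49 and 2.37 scaled TPM in shNT and 7.12 and 7.4 with hairpin 1.

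Integrins shifted in both directions. Of 14 tested subunits 9 were called lower and 2 higher; 3 or 4 were called lower without hairpin 1 replicate 1 or 2. Itga2, a collagen receptor subunit, was at 41.5 and 39.3 scaled TPM in shNT and 18.9 and 18.4 with hairpin 1, Itgav, a subunit of vitronectin and fibronectin receptors, at 32.01 and 32.5 scaled TPM in shNT and 17.7 and 17.5 with hairpin 1, and Itgb6, its partner in activating latent TGF-beta, at 3.4 and 3.66 scaled TPM in shNT and 0.911 and 0.852 with hairpin 1. The 2 that rose were Itgb4, the laminin-binding subunit of hemidesmosomes, at 12.1 and 11.3 scaled TPM in shNT and 21.04 and 20.6 with hairpin 1, and Itgb3 at 2.39 and 2.05 scaled TPM in shNT and 4.61 and 4.91 with hairpin 1. Itga2 was as low with hairpin 2, at 18.8 and 18.8, where the hairpins differed by -0.02 ± 0.04 (SE, log2) (adjusted p = 0.73). Of the 9 lower subunits, Itgb6 passed the minimum through shNT only. Chromosomes 2, 9, 16 and 19 hold 5 of the 14 subunits. With chromosome medians subtracted 7 were called lower and 3 higher, and the list median was -0.30, against -0.46 without.

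Among laminins and basement membrane genes, 10 of 15 tested were called lower and 1 higher (4 lower without either hairpin 1 library). Lamb1 was at 39.1 and 36.2 scaled TPM in shNT and 9.26 and 9.05 with hairpin 1 (log2 difference -1.93 ± 0.06 (SE), adjusted p = 0.000452). Lamb3, a chain of laminin-332, fell by 1.29 ± 0.07 on the log2 scale and Lama5 by 0.99 ± 0.07. Among matricellular and interstitial matrix genes 8 of 15 were called lower and 6 higher; without either hairpin 1 library 6 were lower and 2 or 3 higher. Sparc, a collagen-binding matricellular protein, was at 26.8 and 27.8 scaled TPM in shNT and 10.7 and 10.9 with hairpin 1, Fbln2, fibulin 2, at 234 and 209 scaled TPM in shNT and 90.7 and 93.5 with hairpin 1, and Col5a1, a chain of fibrillar collagen V, at 4.51 and 4.66 scaled TPM in shNT and 0.314 and 0.36 with hairpin 1. Col5a1 and Thbs1, 2 of the 8 called lower, passed the minimum through shNT only. Fn1, fibronectin, was at 31.3 and 31.2 scaled TPM in shNT and 20.8 and 18.96 with hairpin 1. Spp1, osteopontin, was abundant and not called, at 1309 and 1349 scaled TPM in shNT and 1147 and 1152 with hairpin 1 (adjusted p = 0.1). Efemp1, an elastic fibre protein, rose by 0.60 ± 0.06 (SE).

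Matrix proteases and their inhibitors were lower at 14 of 23 tested genes and higher at 3; 8 were called lower without either hairpin 1 library. Of the 14, 4 passed the minimum through shNT only. Mmp13 and its neighbour on chromosome 9, Mmp3, a stromelysin, fell to near 0: Mmp3 was at 3.25 and 3.01 scaled TPM in shNT and 0 and 0.078 with hairpin 1. Both plasminogen activators fell: Plat was at 184 and 181 scaled TPM in shNT and 60.7 and 61.2 with hairpin 1 and Plau was at 13.6 and 14.9 scaled TPM in shNT and 6.14 and 5.66 with hairpin 1. Mmp28 rose by 1.15 ± 0.13 (SE). Mmp14, the membrane-bound activator of other metalloproteinases, was not called (adjusted p = 0.347).

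Heparan sulfate genes, which make and edit the sugar chains that hold growth factors at the cell surface, were lower at 9 of 22 tested and higher at 2 (6 on the deposited scale), with a median of -0.01. Besides Sulf2 and Hs6st2, which act in opposite directions on the same 6-O-sulfate, Ext1, a chain polymerase, fell by 1.04 ± 0.08 on the log2 scale and the core proteins Sdc3 and Sdc4 by 1.30 ± 0.07 and 0.63 ± 0.05. Over the alternative settings the Sdc4 difference lay between -0.70 and -0.26. Hpse, heparanase, which cuts the chains, was at 4.72 and 4.27 scaled TPM in shNT and 9.06 and 9.47 with hairpin 1. Among the 9 lower genes, Sulf2 and Hs3st3b1 passed the minimum through shNT only.

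**Figure D4:**
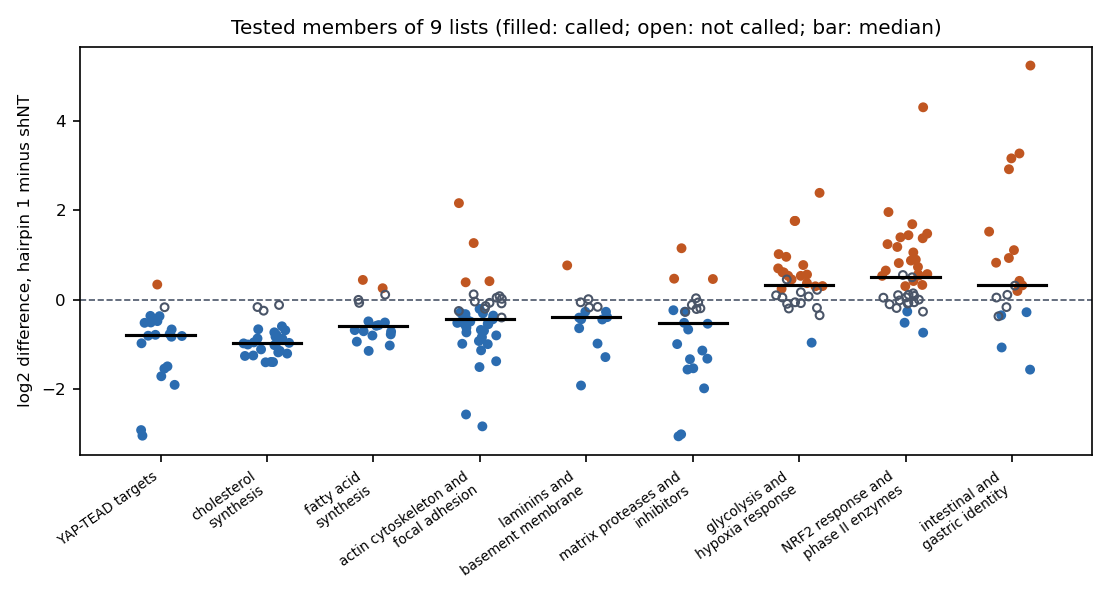
Log2 difference, hairpin 1 minus shNT, of every tested member of 9 lists; filled points were called, open points were not, and the bar is the median. Medians run from -0.97 for cholesterol synthesis and -0.80 for YAP-TEAD targets to 0.50 for NRF2 response and phase II enzymes, and Cdx2 stands at 5.25 among intestinal and gastric genes.

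Detoxification enzymes were among the sets that were higher. Of 41 tested genes of the NRF2 response and phase II conjugation, 22 were called higher and 3 lower (median 0.50), beside 19.5% called higher over all genes; 14 or 12 were called higher without hairpin 1 replicate 1 or 2. Aldh3a1, an aldehyde dehydrogenase, was at 16.8 and 15.2 scaled TPM in shNT and 66.3 and 64.4 with hairpin 1 (log2 difference 1.96 ± 0.07 (SE), adjusted p = 0.000471). Ephx1, microsomal epoxide hydrolase, was at 19.8 and 20.3 scaled TPM in shNT and 56.03 and 56.3 with hairpin 1, and Gstt1, a glutathione transferase, at 2.6 and 3.04 scaled TPM in shNT and 10.8 and 11.9 with hairpin 1. Ugt1a7c was at 1.37 and 1.48 scaled TPM in shNT and 46.3 and 48.03 with hairpin 1 and Ugt1a6a at 2.2 and 1.999 scaled TPM in shNT and 6.71 and 7.37 with hairpin 1; the Ugt1a genes share their last exons, so the split between them is uncertain. Ugt2b34, another glucuronosyltransferase, was at 16.3 and 15.6 scaled TPM in shNT and 47.00 and 45.5 with hairpin 1. Nqo1, a quinone reductase and standard NRF2 target, was at 46.4 and 49.9 scaled TPM in shNT and 81.9 and 79.2 with hairpin 1. Nfe2l2, the gene of NRF2 itself, was at 117 and 109 scaled TPM in shNT and 98.4 and 99.8 with hairpin 1 and was not called (adjusted p = 0.0617). With hairpin 2, Nqo1 was at 46.9 and 46.97 and Ugt2b34 at 15.4 and 14.8, close to shNT. Abcc1, an efflux pump for conjugates, fell by 0.74 ± 0.08.

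In glycolysis and the hypoxia response, 17 of 30 tested genes were called higher and 1 lower (median 0.34). Without hairpin 1 replicate 1 or 2, 6 or 9 were called higher. The 3 phosphofructokinase genes, which commit glucose to glycolysis, differed in size: Pfkp was at 1.03 and 0.942 scaled TPM in shNT and 10.1 and 8.82 with hairpin 1, Pfkl at 27.01 and 25.8 scaled TPM in shNT and 51.3 and 53.3 with hairpin 1, and Pfkm at 39.6 and 42.8 scaled TPM in shNT and 59.5 and 60.4 with hairpin 1. Hk1, hexokinase 1, was at 47.97 and 47.1 scaled TPM in shNT and 72.99 and 73.3 with hairpin 1. Ldha, lactate dehydrogenase A, was at 821 and 894 scaled TPM in shNT and 1373 and 1412 with hairpin 1. Pfkp passed the minimum through hairpin 1 only. The calls of Pfkl and Hk1 held without any single library, while adjusted p without hairpin 1 replicate 1 or 2 was 0.0563 and 0.0594 for Pfkm and 0.085 and 0.0946 for Ldha. The glucose transporter Slc2a1 and the hypoxia factor Hif1a were not called (adjusted p = 0.211 and 0.272). Pfkfb3, which makes an activator of phosphofructokinase, was the 1 gene lower, at 5.95 and 5.75 scaled TPM in shNT and 2.65 and 2.37 with hairpin 1.

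**Figure D5:**
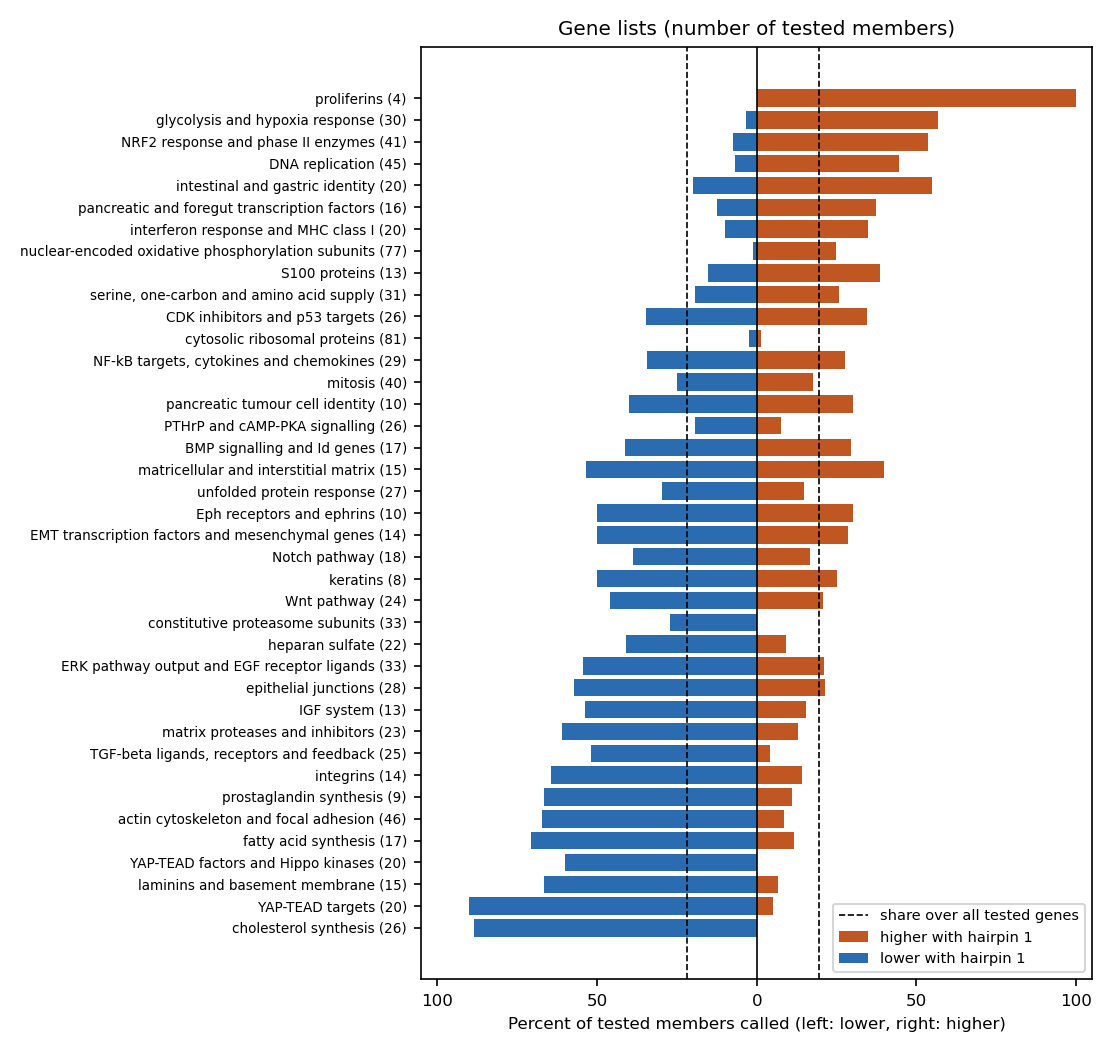
Share of the tested members of each of 39 lists called higher (right) or lower (left) with hairpin 1. Lists are ordered by the share called higher minus the share called lower. The dashed lines mark the shares over all tested genes, 19.5% higher and 21.8% lower. Cholesterol synthesis and YAP-TEAD targets have the largest shares of members called lower, and the 4 tested proliferins were all called higher.

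Intestinal and gastric genes were called higher at 11 of 20 tested and lower at 4. Of the 20 genes 4 (Cdx2, Sox2, Fabp1 and Tff3) passed the minimum through hairpin 1 only, and 3 of them are among the 11. Without hairpin 1 replicate 1 or 2, 7 were higher and 1 or 2 lower. Besides Cdx2, Lgals4, Sox2 and Tff2, Anxa10, an annexin of gastric epithelium, was at 72.6 and 73.3 scaled TPM in shNT and 159 and 158 with hairpin 1. Ctse, an aspartic protease of gastric epithelium, went the other way, at 123 and 126 scaled TPM in shNT and 41.7 and 40.8 with hairpin 1. Cdx1, the close relative of Cdx2, was listed at 0 in all 4 libraries, and Cldn18 was no higher with hairpin 1 than in shNT. Gkn2, Fabp2 and Hnf4a were, with Ctse, the 4 called lower. Over the alternative settings log2 differences lay between -1.87 and -0.77 for Gkn2 and between -0.36 and -0.20 for Fabp2. For Hnf4a they lay between -0.42 and 0.02. Among transcription factors of pancreas and foregut, 6 of 16 were called higher and 2 lower, with a median of 0.01; 5 were higher and 0 lower without either hairpin 1 library. Pdx1, the pancreatic master factor, was at 1.59 and 0.715 scaled TPM in shNT and 8.97 and 10.5 with hairpin 1, Foxa1 at 2.17 and 2.24 scaled TPM in shNT and 9.76 and 10.9 with hairpin 1, Sox9, a duct factor, at 5.09 and 5.19 scaled TPM in shNT and 8.58 and 8.56 with hairpin 1, and Elf3, an epithelial factor, at 66.00 and 63.2 scaled TPM in shNT and 119 and 122 with hairpin 1. Ehf, another epithelial factor, was at 0.118 and 0.189 scaled TPM in shNT and 2.002 and 1.77 with hairpin 1. It was tested only because it is high with hairpin 1. Gata6 was not called (adjusted p = 0.33).

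Epithelial and mesenchymal genes did not divide into a rise of one and a fall of the other. Among those counted here, Cdh3 and Cldn7 passed the minimum through shNT only and Twist2 through hairpin 1 only. Of 28 tested junction genes 16 were called lower and 6 higher; 6 or 7 were lower without hairpin 1 replicate 1 or 2. Cdh3, P-cadherin, was at 8.42 and 8.01 scaled TPM in shNT and 0.781 and 0.558 with hairpin 1, Cldn6 at 40.01 and 41.02 scaled TPM in shNT and 12.5 and 12.8 with hairpin 1, and Ctnnd1, p120 catenin, at 139 and 130.0 scaled TPM in shNT and 81.5 and 81.1 with hairpin 1, whereas Tjp3, a tight junction scaffold, rose by 1.21 ± 0.08 (SE) on the log2 scale. Cdh1, E-cadherin, was at 325 and 294 scaled TPM in shNT and 227 and 224 with hairpin 1 (adjusted p = 0.00999, and 0.104 and 0.114 without hairpin 1 replicate 1 or 2). Of 8 keratins 2 were called higher and 4 lower (1 higher and 1 or 2 lower without hairpin 1 replicate 1 or 2). Krt19, a duct keratin, was at 453 and 429 scaled TPM in shNT and 943 and 956 with hairpin 1 (log2 difference 1.104 ± 0.07 (SE), adjusted p = 0.00133). In the mesenchymal list 7 of 14 were called lower and 4 higher (3 or 2 lower without hairpin 1 replicate 1 or 2). That list holds factors of the epithelial-mesenchymal transition beside mesenchymal genes. Rbm47, an epithelial RNA-binding protein, is 1 of the 4 called higher, so not all of these are mesenchymal rises. Twist2 was at 0.963 and 0.273 scaled TPM in shNT and 14.6 and 14.6 with hairpin 1, while Prrx2, a mesenchymal homeobox factor, was at 38.9 and 41.2 scaled TPM in shNT and 21.8 and 19.9 with hairpin 1. Zeb1 was at 10.3 and 9.83 scaled TPM in shNT and 7.41 and 7.16 with hairpin 1 (adjusted p = 0.00949, and 0.0803 and 0.0965 without hairpin 1 replicate 1 or 2).

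Genes of TGF-beta signalling were lower at 13 of 25 tested and higher at 1 (9 lower without either hairpin 1 library), and 3 of the 13 passed the minimum through shNT only. The receptor Tgfbr2 was at 27.7 and 26.3 scaled TPM in shNT and 13.5 and 12.4 with hairpin 1, the transducer Smad3 at 39.5 and 36.4 scaled TPM in shNT and 23.7 and 23.5 with hairpin 1, and the feedback inhibitors Pmepa1 and Skil, which the pathway induces, at 39.9 and 38.7 scaled TPM in shNT and 16.1 and 16.8 with hairpin 1 and 23.9 and 23.6 scaled TPM in shNT and 12.7 and 13.2 with hairpin 1. The ligand Tgfb1 was not called (adjusted p = 0.735). BMP genes were mixed, with 5 of 17 higher and 7 lower (3 higher and 4 or 5 lower without hairpin 1 replicate 1 or 2). Id2 and Id3, direct BMP targets, were at 109.7 and 111 scaled TPM in shNT and 187 and 184 with hairpin 1 and 70.8 and 73.8 scaled TPM in shNT and 147 and 159.7 with hairpin 1. Grem1, a secreted BMP antagonist, was at 3.19 and 3.51 scaled TPM in shNT and 15.4 and 13.8 with hairpin 1, while the ligand Bmp4 was at 13.9 and 13.9 scaled TPM in shNT and 6.97 and 7.36 with hairpin 1. Id1, on chromosome 2, was not called; with each chromosome's median subtracted it was higher by 0.35 (adjusted p = 0.0139).

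Output of the ERK pathway and EGF receptor ligands was lower at 18 of 33 tested genes and higher at 7; 8 were lower and 3 higher without either hairpin 1 library, and 14 lower on the deposited scale. The feedback phosphatases Dusp5 and Dusp6 were at 51.3 and 50.03 scaled TPM in shNT and 17.1 and 17.9 with hairpin 1 and 68.2 and 61.96 scaled TPM in shNT and 40.1 and 39.9 with hairpin 1. The ligands Hbegf and Nrg1 were at 61.99 and 64.2 scaled TPM in shNT and 31.2 and 32.1 with hairpin 1 and 12.6 and 11.5 scaled TPM in shNT and 3.21 and 3.69 with hairpin 1, and the receptor Erbb3, which binds Nrg1, moved the other way, at 3.18 and 2.29 scaled TPM in shNT and 13.6 and 12.9 with hairpin 1. Hmga2, a chromatin protein of fetal and tumour cells, fell by 1.13 ± 0.05 on the log2 scale. Etv1, an ETS factor, was at 0.0401 and 0.0688 scaled TPM in shNT and 2.32 and 2.07 with hairpin 1. It passed the minimum through hairpin 1 only, and Egfr, called lower, through shNT only.

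In the IGF system, whose binding proteins hold IGF away from its receptor, Igfbp5 and Igfbp3 moved in opposite directions. Igfbp3 was at 33.4 and 30.5 scaled TPM in shNT and 2.65 and 3.31 with hairpin 1. Of 13 tested genes 7 were called lower and 2 higher; 2 or 3 were called lower without hairpin 1 replicate 1 or 2. The other rise was that of Stc2, an inhibitor of the protease that frees IGF from its binding proteins, at 2.06 and 2.93 scaled TPM in shNT and 15.9 and 17.2 with hairpin 1, and Igf2bp2, an RNA-binding protein, fell by 1.15 ± 0.10. Prostaglandin synthesis was lower at 6 of 9 tested genes and higher at 1 (5 and 0 without either hairpin 1 library). Ptgs2 (COX-2) was at 34.3 and 37.1 scaled TPM in shNT and 11.3 and 9.95 with hairpin 1, Ptgs1 (COX-1) at 13.8 and 12.5 scaled TPM in shNT and 6.14 and 5.37 with hairpin 1, and Pla2g4a, which frees arachidonic acid, at 47.04 and 48.3 scaled TPM in shNT and 28.97 and 27.4 with hairpin 1. With hairpin 2, Ptgs2 was at 41.1 and 38.9, close to shNT.

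Other signalling families had members in both directions. Of 24 tested Wnt genes 11 were called lower and 5 higher (5 and 1 without either hairpin 1 library, and 8 lower on the deposited scale), and 3 of the 11 passed the minimum through shNT only. Beside Wnt7a, the receptor Ror1 was at 3.02 and 2.82 scaled TPM in shNT and 0.539 and 0.394 with hairpin 1 and the ligand Wnt10b at 2.51 and 3.19 scaled TPM in shNT and 0.442 and 0.609 with hairpin 1, while Wnt4 was at 1.004 and 1.06 scaled TPM in shNT and 4.53 and 4.91 with hairpin 1. Of 18 Notch genes 7 were lower and 3 higher (3 lower and at most 1 higher without either hairpin 1 library). The ligand Dll4 was at 2.73 and 2.59 scaled TPM in shNT and 0.136 and 0.125 with hairpin 1. It passed the minimum through shNT only. The feedback target Nrarp was at 42.8 and 43.1 scaled TPM in shNT and 19.8 and 19.6 with hairpin 1. Both genes lie on chromosome 2 and stayed lower with its median subtracted, by -1.32 and -0.71. Of 10 Eph receptors and ephrins 5 were lower and 3 higher (2 and 0 without either hairpin 1 library), and Epha4 was at 23.6 and 22.4 scaled TPM in shNT and 8.2 and 7.34 with hairpin 1.

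Cell cycle genes gave small differences. Of 45 tested DNA replication genes 20 were called higher and 3 lower, with a median of 0.16; without either hairpin 1 library 2 were higher and 0 lower, on the deposited scale 27 and 1, and with small-RNA entries left out 8 and 2. E2f2, an S phase transcription factor, was at 6.11 and 6.93 scaled TPM in shNT and 11.6 and 12.1 with hairpin 1. Mcm7, a subunit of the replicative helicase, was at 170.4 and 170.3 scaled TPM in shNT and 227 and 224 with hairpin 1 (adjusted p = 0.00593, and 0.0929 and 0.0905 without hairpin 1 replicate 1 or 2). Pcna was not called (adjusted p = 0.913). Mitosis genes were called higher at 7 of 40 (17.5%) and lower at 10 (25%), near the 19.5% and 21.8% over all genes; 0 were higher with small-RNA entries left out, and without hairpin 1 replicate 1 or 2, 0 were higher and 3 or 2 lower. The cytokinesis genes Kif23 and Anln were at 129 and 112 scaled TPM in shNT and 69.2 and 68.97 with hairpin 1 and 72.9 and 69.1 scaled TPM in shNT and 46.3 and 44.8 with hairpin 1. Mki67, the proliferation marker, was not called (adjusted p = 0.2).

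Among CDK inhibitors and p53 targets, 9 of 26 tested were called higher and 9 lower; without hairpin 1 replicate 1 or 2, 0 were higher and 3 or 4 lower. The neighbouring CDK inhibitor genes of chromosome 4 fell together: Cdkn2a was at 144 and 167 scaled TPM in shNT and 43.98 and 48.3 with hairpin 1 (log2 difference -1.73 ± 0.10 (SE), adjusted p = 0.00104) and Cdkn2b at 29.2 and 30.3 scaled TPM in shNT and 9.05 and 7.91 with hairpin 1. With hairpin 2, Cdkn2a was at 167 and 167, close to shNT. Plk2, a p53-induced kinase, was at 28.4 and 28.3 scaled TPM in shNT and 5.9 and 5.07 with hairpin 1.

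Interferon and MHC class I genes were called higher at 7 of 20 tested and lower at 2 (3 and 0 without either hairpin 1 library). Oasl1, an antiviral protein, was at 13.4 and 12.5 scaled TPM in shNT and 27.9 and 27.7 with hairpin 1, Ifi27 at 2.82 and 2.59 scaled TPM in shNT and 6.34 and 6.53 with hairpin 1, and the class I heavy chain H2-D1 at 70.8 and 71.1 scaled TPM in shNT and 122 and 131 with hairpin 1; class I genes are near-identical, so the value of H2-D1 is uncertain. B2m, the class I light chain on chromosome 2, was at 159 and 173 scaled TPM in shNT and 122 and 117 with hairpin 1, a call that was lost with the chromosome median subtracted (adjusted p = 0.337) and without hairpin 1 replicate 1 or 2 (adjusted p = 0.0752 and 0.0946). NF-kB targets and chemokines were split, 8 of 29 higher and 10 lower (6 or 7 higher and 6 or 4 lower without hairpin 1 replicate 1 or 2). The neutrophil chemokines Cxcl5 and Cxcl3 were at 114 and 145 scaled TPM in shNT and 349.7 and 329 with hairpin 1 and 38.2 and 52.3 scaled TPM in shNT and 133 and 129 with hairpin 1, and the interleukin 1 antagonist Il1rn at 2.04 and 1.84 scaled TPM in shNT and 13.7 and 12.3 with hairpin 1. Icam1 and Tnfaip3, standard NF-kB targets, fell by 0.58 ± 0.06 and 0.60 ± 0.06 on the log2 scale. Lcn2 and Saa3, 2 of the 8 NF-kB and chemokine genes called higher, passed the minimum through hairpin 1 only. The neutrophil marker genes Ly6g, Mpo, Elane and Retnlg were listed at 0 in all 4 libraries. Mrc1, a mannose receptor in the myeloid list, was named after its values were seen and was higher, at 4.999 and 4.84 scaled TPM in shNT and 14.2 and 14.2 with hairpin 1 (adjusted p = 0.000772).

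Lists of stress and amino acid genes had calls in shares near those over all genes, 19.5% higher and 21.8% lower. Of 27 unfolded protein response genes 4 (14.8%) were called higher and 8 (29.6%) lower (1 and 2 without either hairpin 1 library, 5 and 5 with chromosome medians subtracted). The chaperone Hspa5 was at 481 and 458 scaled TPM in shNT and 256 and 269 with hairpin 1 and the stress factor Atf3 at 4.59 and 4.74 scaled TPM in shNT and 1.42 and 1.4 with hairpin 1, while Xbp1, a transcription factor of the response, was at 27.5 and 25.8 scaled TPM in shNT and 44.9 and 47.9 with hairpin 1. Of 31 genes of serine, one-carbon and amino acid supply 8 (25.8%) were higher and 6 (19.4%) lower (3 and 1 without either hairpin 1 library, 12 and 3 on the deposited scale). Bcat2, which starts branched-chain amino acid breakdown, was at 24.2 and 27.8 scaled TPM in shNT and 47.1 and 48.3 with hairpin 1, the glutamine transporter Slc1a5 at 26.6 and 30.1 scaled TPM in shNT and 46.4 and 46.6 with hairpin 1, and Slc38a1, another one, at 6.17 and 5.93 scaled TPM in shNT and 2.82 and 2.85 with hairpin 1.

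The proliferins, placental hormones of the prolactin family that some mouse tumour lines express, were higher at all 4 tested members of 5 listed. Prl2c2 was at 215 and 287 scaled TPM in shNT and 1335 and 1338 with hairpin 1 (log2 difference 2.42 ± 0.15 (SE), adjusted p = 0.00125) and Prl2c3 at 9.24 and 8.56 scaled TPM in shNT and 126 and 115 with hairpin 1. Hairpin 2 lay between, with Prl2c2 at 439 and 472 and Prl2c3 at 27.4 and 30.9. Prl2c4 was at 0 and 2.66 scaled TPM in shNT and 17.7 and 16.9 with hairpin 1, so its shNT replicates disagree, and its call was lost with a pseudocount of 0.1 (adjusted p = 0.06) and without hairpin 1 replicate 1 or 2 (adjusted p = 0.0895 and 0.0891). These genes are near-identical, and the split of reads between them is uncertain. Of the 4, Prl2c5 passed the minimum through hairpin 1 only. Among 13 tested S100 genes 5 were higher and 2 lower (3 higher and 1 or 2 lower without hairpin 1 replicate 1 or 2). S100a16 was at 86.3 and 94.6 scaled TPM in shNT and 302 and 312 with hairpin 1, and S100a7a was lower, at 9.72 and 13.3 scaled TPM in shNT and 2.56 and 3.24 with hairpin 1.

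Short, abundant housekeeping transcripts differed between the shNT replicates themselves. Ribosomal protein genes had a median of 0.29 for hairpin 1 minus shNT, while shNT replicate 2 minus replicate 1 had a median of 0.34. Of 81 tested, 1 was called higher and 2 lower. Without shNT replicate 1, 20 were called higher and 12 lower, and without shNT replicate 2, 69 and 4; on the deposited scale 13 were higher and 0 lower, and with small-RNA entries left out 17 and 6. Subunits of oxidative phosphorylation had a median of 0.25, and of 0.36 between the shNT replicates; 19 of 77 were called higher and 1 lower, 61 were higher without shNT replicate 2 and 1 without either hairpin 1 library. The S100 list had a median of 0.41 between the shNT replicates. Constitutive proteasome subunits had 9 of 33 called lower and 0 higher; 3 were lower with chromosome medians subtracted and 0 without either hairpin 1 library. The proteasome share called lower was 27.3%, near the 21.8% over all genes. The oxidative phosphorylation share called higher was 24.7%, near the 19.5% over all genes. Between the hairpin 1 replicates the medians of ribosomal and oxidative phosphorylation genes were 0.05 and 0.06.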

How the data were processed

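RNA sequencing libraries of KPCY cells were grouped by the hairpin in their sample titles: shNT (n = 2), hairpin 1 (n = 2) and hairpin 2 (n = 2). The authors deposited 1 table of TPM, gene abundances scaled to 1000000 per library. The submitters' processing notes name mm10, Salmon, DESeq2 and R 3.5; the Salmon version and the role of DESeq2 are not given in the sources used here. Qiagen RNeasy extraction and library construction by Novogene are stated per the labels' protocols. Depth is unknown, and an entry listed at 0 was given no fold.

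Genes with a deposited TPM of at least 1 in at least 2 of the 4 libraries of shNT and hairpin 1 were kept. Each library was divided by its median ratio to the geometric mean over genes at 1 TPM or more in all 4, because short entries with very large TPM take unequal shares. Hairpin 2 libraries were scaled to the same reference for display. Values were tested as log2(scaled TPM + 1) with limma 3.58.1 in R 4.3.3: 2 group means, a variance prior that follows mean level, 2 residual degrees of freedom and Benjamini-Hochberg adjustment over all genes tested, with a threshold of 0.05. A log2 difference is on this scale and understates the change of low genes. Hairpin 1 minus hairpin 2 was a separate fit of those 4 libraries.

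The comparison, the gene lists (39 pathways and 8 other cell types) and the tests were chosen with earlier results of these data known, so counts over a list are descriptions. The named genes were Pthlh; the 15 largest rises and 15 largest falls among called genes with a mean of at least 5 scaled TPM in the higher group and groups that do not overlap; the 6 largest differences in scaled TPM each way; of each list up to 6 tested members with the smallest p, all members of a direction with 5 or fewer calls, and preset members; and the highest gene of each list of another cell type. Predicted genes, clone names, pseudogenes and small-RNA entries were left out. Only some are printed, chosen after their values were seen. A few named genes are counted in their lists but not reported here. Positions are from GENCODE M21 (GRCm38, the same build) and promoters from RefSeq GRCm38.p6; 99.9% of tested genes had a chromosome.

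Replicate numbers were checked for pairing: deviations of same-numbered libraries from their group means correlated at 0.03 across genes. Alternatives covered scaling, the pseudocount, the filter, the variance prior, a replicate block, all 6 libraries in 1 fit, chromosome centring and the omission of each library.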

Additional observations from a re-analysis of the deposited data

How the results depend on the processing

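Under the 11 alternatives that keep all 4 libraries, between 3815 and 5457 genes were called, against 4687. With small-RNA entries left out, 1467 genes were called higher and 2405 lower; the cause was not tested. Leaving out 1 library at a time gave 1266 to 5646 called genes, 533 to 2867 higher and 733 to 2779 lower, with the low end at hairpin 1 replicate 2. Left with 1 library, a group is assumed to vary like the other group. The Pthlh difference lay between -0.93 and -0.76 without each library, with adjusted p of 0.0733 and 0.0735 without shNT replicate 1 and 2 and of 0.160 and 0.156 without hairpin 1 replicate 1 and 2. Hairpin 1 minus hairpin 2 gave 3852 to 6011 called genes over 9 alternatives. With the replicate number as a block, 4341 genes were called; the numbers do not pair the samples, since same-numbered libraries deviated together at a correlation of 0.03 only.

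Of 338 named genes tested, 305 were called. No gene called in either fit changed sign under deposited TPM, quantile normalization or the omission of small-RNA entries, where 9, 2 and 3 genes called in neither did. With chromosome medians subtracted, 13 signs changed, 7 of them in genes called in neither fit; the other 6 reversed, Gins1 to 0.15, Gnas to 0.00339, Hnf4a to 0.0178, Id1 to 0.35, Psmd5 to 0.0136 and Rpl7a to 0.0209. Without hairpin 1 replicate 1 or 2, 128 or 122 named genes lost their call, against 9 or 7 without shNT replicate 1 or 2. TPM gives no depth, so counting error could not be set against any of these values.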

Other observations

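A few entries were listed at 0 in both libraries of 1 group and at 1 TPM or more in both of the other, and no fold can be given for them. At 0 in shNT and present with hairpin 1 were 24 entries, 20 of them small-RNA entries and 4 named genes. Fabp1, a fatty acid-binding protein of liver and gut, was at 2.12 and 1.65 scaled TPM with hairpin 1. With hairpin 2 it was at 1.98 and 1.55, so this gene was present with both hairpins. C2cd4a, a nuclear protein with a C2 domain, was at 1.72 and 2.43 with hairpin 1 and at 0 and 0.0779 with hairpin 2. Hs3st5, which adds 3-O-sulfate to heparan sulfate, was at 1.48 and 1.64, and at 0 and 0.0316 with hairpin 2. Saa3, an acute-phase serum amyloid protein, was at 2.30 and 1.09, with 0.374 and 0.165 for hairpin 2. The reverse pattern, present in shNT and at 0 with hairpin 1, was found for 5 entries, 4 of them small-RNA entries and the other a pseudogene.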
